A study of Homo sapiens with 60 samples.

Results

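The step from the medium to the high dose of Coptidis Rhizoma, a 70% ethanol extract, was described in SW1783 cells from 4 of the 60 libraries of the series: 2 at 14 µg/mL (high) and 2 at 2.8 µg/mL (medium), chosen by the dose in their titles. SW1783 is an established human astrocytoma line, so the results are those of 1 tumour cell line and not of a tissue. All groups were grown in Leibovitz's L-15, a medium with galactose in place of glucose, and were exposed for 24 h. For reference, 2 libraries at 0.56 µg/mL (low) and 3 libraries of cells given the vehicle alone (DMSO, 0.1% by the labels of the samples and 2% by the series text) were used, and 6 libraries of Zizyphi Fructus extract (20, 100 and 500 µg/mL, 2 each), which carry the same set number as the Coptidis libraries, gave the same step under another herb. Per the series text, the high dose of such an extract was its IC20, the concentration with 20% inhibition, and the other doses were 5-fold dilutions, so each dose step is 5-fold. Below, the step from low to medium is called the lower step and that from medium to high the upper step. The replicates of every Coptidis dose are numbered 2 and 3 and are given in that order, and those of the vehicle 1, 2 and 3. Nothing in the labels says that replicates came from separate cultures, so the p-values measure the spread between these libraries, which may be technical. No vehicle library carries the set number of the extracts, so set and treatment cannot be told apart in any sentence that uses the vehicle, while the upper and lower steps lie within 1 set.

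The rhizome of Coptis is rich in berberine and related isoquinoline alkaloids. Berberine is a lipophilic cation that collects in mitochondria and is known to slow complex I of the respiratory chain. Cells that meet faults in mitochondria, amino acid supply or the endoplasmic reticulum (ER) phosphorylate the translation factor eIF2, which lowers protein synthesis overall and raises translation of ATF4, a transcription factor for amino acid transport, amino acid synthesis and tRNA charging. This route is the integrated stress response. Unfolded protein in the ER is sensed by PERK, which feeds the same route, by ATF6 and by IRE1, which splices the mRNA of XBP1. ATF6 and XBP1 raise ER chaperones and the machinery that returns faulty proteins to the cytosol for degradation.

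Library totals ran from 21596771 to 25495851 counts in the 6 Coptidis libraries and from 15996140 to 20857959 in the vehicle. The 2 high libraries differed from each other by more than counting noise (chi-square per degree of freedom 2.78 over 16372 genes, where counting alone gives about 1), as did the 2 medium libraries (2.61 over 17120 genes), so neither pair is 1 library deposited again. Between 14804 and 14963 genes had at least 10 counts in the high libraries, against 15612 and 15618 in the medium libraries. Of 7 astrocyte markers, 5 were below 1 CPM (counts relative to the library total, with TMM scaling) in every Coptidis and vehicle library, GFAP and S100B among them. Only the gap junction gene GJA1 and the glutamate transporter SLC1A3 were above it, while the mesenchymal and glial filament gene VIM was at 4111 CPM or more in each. SLC1A3 ranged from 1.83 to 34.7 CPM over these libraries and fell in the upper step (log2 -3.11). GJA1 ranged from 198 to 250 CPM and rose (0.28). The summed level of 7 microglia and leukocyte markers was 260 and 273 CPM in the high and 183 and 198 CPM in the medium libraries, with 4 of the 7 below 1 CPM throughout and 1 at 0. CD68 made up most of this sum, at 127 to 267 CPM over the Coptidis and vehicle libraries, where PTPRC reached at most 13.7 CPM. Of the 3 markers tested, 1 rose and 2 fell in the upper step (median log2 -0.69). The sum of 6 epithelial markers was 163 and 167 CPM against 211 and 214 CPM, with 3 of 6 below 1 CPM throughout. That of 7 neuronal markers was 119 and 114 CPM against 130 and 129 CPM, with 3 of 7 below 1 CPM throughout. Of 4 epithelial markers tested 1 rose and 1 fell, and of 4 neuronal markers 2 rose and 2 fell. The part of other cell types in the results was not tested. Whether cells changed in number or each cell changed its RNA cannot be told apart in bulk RNA.

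The upper step changed most genes that were tested. With edgeR, 10440 of 16812 genes (62.1%) passed an adjusted p of 0.05, of which 5302 (31.5%) were higher and 5138 (30.6%) lower at the high dose, with a median log2 difference of -0.016 over all genes. Changes of at least 2-fold were more often falls: 869 genes (5.17%) were higher and 1710 (10.2%) lower. Both high libraries lay beyond both medium libraries for 13463 genes (80.1%). The lower step, although also 5-fold in dose, changed 2280 genes (13.6%), 1305 higher (7.76%) and the rest lower (5.8%), and 120 (0.714%) by at least 2-fold. That count rests on each of its 4 libraries: it was 1247 and 1277 without replicate 2 or 3 of the low dose and 1336 and 1370 without replicate 2 or 3 of the medium dose. The upper-step count was between 9129 and 9419 with 1 high or medium library left out. It was 6285 when all 57 replicated libraries of the series entered the fit and 10690 with 55, without 2 libraries of other groups that stand apart from their own group. The share of counts from the mitochondrial ribosomal RNAs differed between the doses (10.3% in both medium and 4.19% and 4.23% in the high libraries). With all genes of the mitochondrial chromosome left out before scaling, 10440 genes passed, 10425 of them shared with the full fit.

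The difference between the steps was itself tested and passed for 6335 genes (37.7%; 18.8% with the higher and 18.9% with the lower upper step). Genes were then sorted by the shape of their change. Genes that passed in the upper step, differed between the steps in the same direction and had a 95% interval for the lower step within 1.5-fold either way are called upper-step genes. There were 5312 (31.6%), 2827 rising (16.8%) and 2485 falling (14.8%), of which 4317 (25.7%) did not pass in the lower step. Graded genes, which passed in both steps in the same direction, numbered 1819 (10.8%; 6.08% rising and 4.73% falling), and 877 of these (5.22% of genes tested) also met the upper-step rule because their lower step was small. Lower-step genes, which passed in the lower step with an upper step within 1.5-fold, numbered 808 (4.81%; 3.16% rising and 1.65% falling in the lower step). Some of them also passed in the upper step with a small change, and genes that were graded, lower-step or both numbered 2190. Genes that turned back passed in both steps with opposite signs and numbered 156 (0.928%), 55 rising (0.327%) and 101 falling (0.601%) in the upper step, and 118 of them (0.702% of genes tested) also met the upper-step rule. Both steps use the medium libraries, so an error there alone moves a gene toward turning back, and these counts are a description of shapes.

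**Figure D1:**
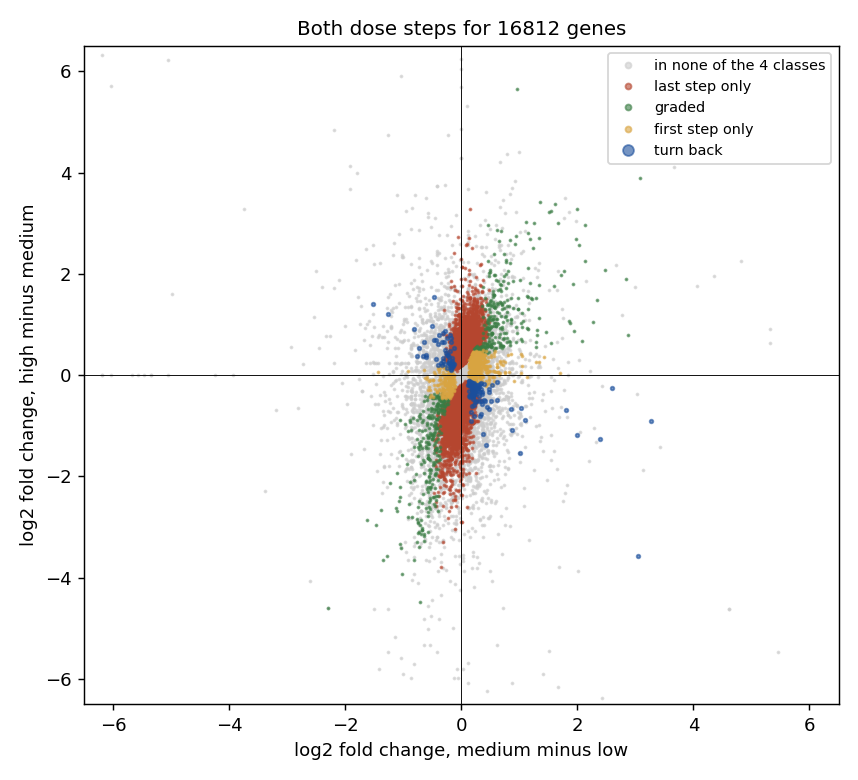
Log2 difference of the lower step (medium minus low, x axis) against the upper step (high minus medium, y axis) for the genes tested, coloured by class; a gene in several classes is drawn as turn back before upper step (labelled last step only), lower step (labelled first step only) and graded, and 18 genes lie outside the axes. The cloud is tall and narrow, since 2579 genes moved at least 2-fold in the upper step and 120 in the lower step, and the 156 turn-back genes sit in the upper left and lower right.

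Most of the largest rises were of genes below 1 CPM at the medium dose. HRK, a BH3-only activator of cell death (chr12:116856144-116881441), gave 82 and 81 reads in the high libraries and 1 and 2 in the medium libraries, a ratio of 64.7 on the TMM scale with a counting interval of 21.7 to 317. NGFR, the low-affinity neurotrophin receptor (chr17:49495293-49515017), was at 1.74 and 1.52 CPM at the low dose, 2.88 and 3.47 CPM at the medium dose and 169 and 151 CPM at the high dose. Its groups did not overlap, and it rose 50.4-fold in the upper step (log2 5.66 ± 0.09 SE, edgeR adjusted p = 1.6e-18). Among genes averaging 1 CPM or more, the other members of the 10 largest rises were the Notch target and segmentation clock repressor HES7 (log2 4.74 ± 0.48), the keratins KRT75 (4.40 ± 0.28) and KRT17 (3.61 ± 0.22), the magnesium transporter relative NIPAL4 (4.37 ± 0.29), the zinc transporter SLC30A2 (18.4-fold), GDF15, RRAGD and LRRC70 (3.70 ± 0.43). Of the other neurotrophins and receptors described, BDNF rose (0.29), NTF4 (-1.92) and SORT1 (-0.30) fell, and NTF3 and NTRK3 did not pass. Of these 10, NGFR, KRT75, NIPAL4, GDF15 and LRRC70 overlap other genes in the annotation, LRRC70 overlapping IPO11, and GDF15 and NGFR microRNA genes, on the same strand. The library kit keeps the strand, per the labels, but whether counting used it is not stated, so part of the counts of overlapping genes may belong to their partners.

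Most of the 10 largest falls left genes below 1 CPM in both high libraries, while DIO2 and FAM111B (1.14 and 1.44 CPM) stayed above it. AC110597.3, a transcript antisense to DSEL, had 339 and 219 counts in the medium libraries and 0 in both high libraries, at least 77.7-fold lower on the TMM scale with a floor of 3 counts per library. CD248, the stromal cell surface glycoprotein endosialin (chr11:66314487-66317044), went from 2.24 and 3.74 CPM to 0.0494 and 0.214 CPM (log2 -4.48 ± 0.45, edgeR adjusted p = 7.6e-08). CCN4, a secreted matricellular protein and WNT target (chr8:133191039-133231690), was between 10.9 and 15.4 CPM in each vehicle, low and medium library and at 0.839 and 0.855 CPM in the high libraries (13.9-fold lower). DIO2, the deiodinase that makes active thyroid hormone in astrocytes, was at 56.0 and 54.4 CPM at the low dose, 30.5 and 31.9 CPM at the medium dose and 2.12 and 2.89 CPM at the high dose, so it fell in both steps and 12.5-fold in the upper. The rest of the 10 largest falls were METTL7A (log2 -3.94 ± 0.38), the lncRNA Z94160.2 (-3.85 ± 0.87), the prolyl hydroxylase EGLN3 (-3.69 ± 0.24), the heparan sulfate enzyme NDST3 (-3.40 ± 0.29), FAM111B (-3.34 ± 0.17) and GASK1B-AS1 (-3.30 ± 0.21). Of these, METTL7A, CD248, CCN4, DIO2, NDST3 and FAM111B also fell in the lower step, CCN4 by 0.36 on the log2 scale. CD248, DIO2, NDST3 and Z94160.2 overlap genes on the other strand, and EGLN3 and GASK1B-AS1 overlap genes on both strands. Z94160.2 varied in the vehicle (3.21, 2.33 and 0.300 CPM) and was at 0.197 and 0.107 CPM in the high libraries.

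The integrated stress response rose in both steps, but its members split in the upper step. Of 23 tested members of the ATF4 list, 18 rose, 2 fell and 3 did not pass, with a median log2 difference of 0.95 against -0.016 over all genes. In the lower step 21 rose and 0 fell, with a median of 1.14. Over all genes tested 31.5% rose and 30.6% fell in the upper step, and 7.76% rose and 5.8% fell in the lower step. Each list count below stands beside these shares. ATF4 mRNA was at 125 and 117 CPM at the low dose, 261 and 272 CPM at the medium dose and 498 and 515 CPM at the high dose, about equal log2 steps of 1.13 ± 0.05 and 0.93 ± 0.04. DDIT3, the transcription factor CHOP that promotes death under lasting stress (chr12:57516588-57521737, overlapping MARS on the other strand), was at 23.6 and 25.4 CPM at the low dose, 72.5 and 83.0 CPM at the medium dose and 635 and 614 CPM at the high dose. Its upper step (8.03-fold, edgeR adjusted p = 5.8e-17) was larger than its lower step (log2 3.01 ± 0.06 against 1.66 ± 0.07). PPP1R15A, which recruits the phosphatase that reverses eIF2 phosphorylation, went from 87.3 and 91.9 to 560 and 580 CPM (6.36-fold, edgeR adjusted p = 9.2e-19). GDF15, a secreted stress hormone, was at 3.60 and 4.23 CPM at the low dose and 32.7 and 33.3 CPM at the medium dose. It reached 489 CPM in both high libraries. Its lower step was log2 3.07 ± 0.08 and its upper step 3.89 ± 0.05 (14.8-fold). ATF3, a repressor induced by ATF4, went from 6.64 and 5.45 CPM at the medium dose to 59.2 and 55.9 CPM at the high dose. The pseudokinase TRIB3 rose 4.23-fold, the asparagine synthetase ASNS 2.09-fold and the amino acid exchanger subunit SLC3A2 3.29-fold.

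Members that respond at the medium dose did not all go on rising. CHAC1, which degrades glutathione, was at 5.74 and 5.39 CPM at the low dose, 33.0 and 34.1 CPM at the medium dose and 26.6 and 29.9 CPM at the high dose. It rose by log2 2.59 ± 0.11 in the lower step and fell by 0.25 ± 0.09 on the log2 scale in the upper step (edgeR adjusted p = 0.027). That fall lost its call with DESeq2, with all 57 replicated libraries and without replicate 2 of the high dose or either medium library, with values between -0.28 and -0.17. The cystine transporter SLC7A11 rose by 1.04 and then by 0.18. DDIT4, VLDLR and JDP2 rose in the lower step (1.14, 0.56 and 1.28) and did not pass in the upper step (-0.04, -0.13 and 0.25). ATF5, an ATF4 relative, fell in the upper step (-0.64 ± 0.10) from 25.9 and 29.4 to 16.5 and 18.9 CPM. The gene overlaps IL4I1 and NUP62 on the other strand.

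Genes of serine synthesis and tRNA charging, many of them known ATF4 targets, mostly rose as well. Of 12 serine and one-carbon genes, 8 rose, SHMT1 fell and 3 did not pass (median 0.46), and 9 had risen in the lower step. The mitochondrial folate enzymes MTHFD2 (1.32) and MTHFD1L (1.10) and the proline enzyme PYCR1 (1.06) rose most. The cytosolic SHMT1 fell from 27.7 and 28.6 to 13.0 and 13.5 CPM (log2 -1.09 ± 0.08, edgeR adjusted p = 4.6e-10), and PSAT1, the serine aminotransferase, rose by 1.70 in the lower step and was at 0.04 in the upper. Of 20 cytosolic aminoacyl-tRNA synthetases, which charge tRNAs with amino acids, 15 rose, HARS1 fell (-0.44) and 4 did not pass (median 0.36), with AARS1 (2.58-fold), GARS1 (2.46-fold), YARS1 (2.12-fold) and SARS1 (2.01-fold) rising most.

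Promoter letters were read for these lists from RefSeq (GRCh38.p14), from 250 bases before to 50 after each gene's start, on both strands. The C/EBP-ATF response element, TGATGNAA, was in 3.67% of all 27305 promoters and in 6 of the 22 ATF4-list promoters found there (27.3%: ATF3, CHAC1, FGF21, ASNS, SLC3A2 and SLC7A1). FGF21 did not pass the filter on low counts. The promoters of CHAC1 and ASNS are shown because both genes rose in the lower step and they parted in the upper step, and the capitals mark the element on either strand.
CHAC1, chr15:40953221-40953520, plus strand: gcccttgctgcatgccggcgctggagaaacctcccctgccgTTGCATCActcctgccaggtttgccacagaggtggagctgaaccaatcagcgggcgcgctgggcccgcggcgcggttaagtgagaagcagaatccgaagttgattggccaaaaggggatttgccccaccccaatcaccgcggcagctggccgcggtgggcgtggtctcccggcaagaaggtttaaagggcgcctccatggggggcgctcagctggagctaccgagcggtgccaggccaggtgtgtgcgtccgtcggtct
ASNS, chr7:97872359-97872658, minus strand: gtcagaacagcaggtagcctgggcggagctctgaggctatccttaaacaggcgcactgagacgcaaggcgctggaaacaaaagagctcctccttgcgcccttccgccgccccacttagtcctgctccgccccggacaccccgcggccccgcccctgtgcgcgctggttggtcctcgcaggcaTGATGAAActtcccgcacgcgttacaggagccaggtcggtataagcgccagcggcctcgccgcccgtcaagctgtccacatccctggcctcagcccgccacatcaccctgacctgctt
Both promoters hold 1 match, that of CHAC1 reading on the opposite strand.

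ER chaperones rose mainly in the upper step. Of 22 chaperones and folding enzymes, 20 rose, FKBP14 fell (-0.42) and PDIA5 did not pass (-0.06), with a median of 0.45. In the lower step 15 rose and 0 fell, with a median of 0.20, beside 7.76% and 5.8% of all genes. The upper-step rule was met by 13 of the 22 (59.1%, against 31.6% of all genes tested). The classes can overlap, and 15 of the 22 were graded (10.8% of all genes). HSPA5, the main ER chaperone BiP (chr9:125234853-125241330), was at 3583 and 3587 CPM at the low dose, 5782 and 5611 CPM at the medium dose and 18648 and 18197 CPM at the high dose. The medium libraries stood above all vehicle and low libraries (highest 3628 CPM) and the high libraries 3.23-fold above the medium (edgeR adjusted p = 4.4e-17). DNAJB9, a cofactor of BiP and target of XBP1, rose 3.97-fold in the upper step (45.8 and 45.1 to 186 and 175 CPM). HSP90B1, DNAJC3, SDF2L1, ERO1B, HYOU1 and MANF rose by log2 0.71 to 0.83, and the protein disulfide isomerases PDIA3, PDIA4, PDIA6 and P4HB by 0.38 to 0.48.

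Sensors of ER stress and the degradation pathway rose with them. Of 23 tested members 18 rose, CREB3L2 (-0.25) and EDEM3 (-0.22) fell and 3 did not pass (median 0.51), and 11 rose and 0 fell in the lower step. ERN1, which encodes the sensor IRE1, went from 25.0 and 29.3 to 101 and 95.2 CPM (3.62-fold, edgeR adjusted p = 5.9e-14). XBP1, its splicing target, went from 152 and 151 to 344 and 321 CPM, and HERPUD1, part of the ER degradation complex, from 189 and 188 to 653 and 638 CPM. DERL3, a channel component of that complex, did not differ detectably between low and medium (1.19 and 1.24 against 1.19 and 1.27 CPM) and was 4.39-fold higher at the high dose (5.33 and 5.51 CPM). PERK (EIF2AK3, 0.23) and ATF6 (0.24) rose less. The counts are of whole genes, so the spliced form of XBP1 was not measured.

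The ER stress element, a CCAAT box followed after 9 bases by CCACG, was in 0.0806% of all promoters. It was in 6 of 20 chaperone promoters (30%: HSPA5, HSP90B1, CALR, CANX, CRELD2 and ERO1B) and in that of XBP1. These 6 genes rose by log2 1.69, 0.75, 0.51, 0.42, 0.38 and 0.82. The CCAAT box within it was in 35.7% of all and in 85% of the chaperone promoters, and the XBP1 element TGACGTGG in 0.795% and 10%. The CCAAT box was not particular to chaperones. It was in 88.9% of the promoters of the mitosis list, 83.3% of the cholesterol list and 73.7% of the ER stress sensor list. In the DNA replication and ATF4 lists it was in 63.6% and 50%. The promoters of HSPA5 and HSP90B1 are shown as the chaperone with the largest rise among those with the element and the chaperone whose promoter holds 2 matches.
HSPA5, chr9:125241294-125241593, minus strand: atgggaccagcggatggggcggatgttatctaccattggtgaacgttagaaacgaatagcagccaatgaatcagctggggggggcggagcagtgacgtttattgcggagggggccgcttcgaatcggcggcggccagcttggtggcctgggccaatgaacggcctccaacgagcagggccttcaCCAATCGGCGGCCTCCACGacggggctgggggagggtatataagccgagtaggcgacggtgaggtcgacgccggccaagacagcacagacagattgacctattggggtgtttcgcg
HSP90B1, chr12:103930160-103930459, plus strand: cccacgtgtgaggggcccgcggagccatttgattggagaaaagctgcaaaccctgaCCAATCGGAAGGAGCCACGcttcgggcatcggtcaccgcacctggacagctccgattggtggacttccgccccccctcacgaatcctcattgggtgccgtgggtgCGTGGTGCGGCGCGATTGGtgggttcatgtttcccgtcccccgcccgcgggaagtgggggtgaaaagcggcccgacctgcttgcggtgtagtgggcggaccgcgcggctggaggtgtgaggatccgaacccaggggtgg
The capitals mark the element on either strand.

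**Figure D2:**
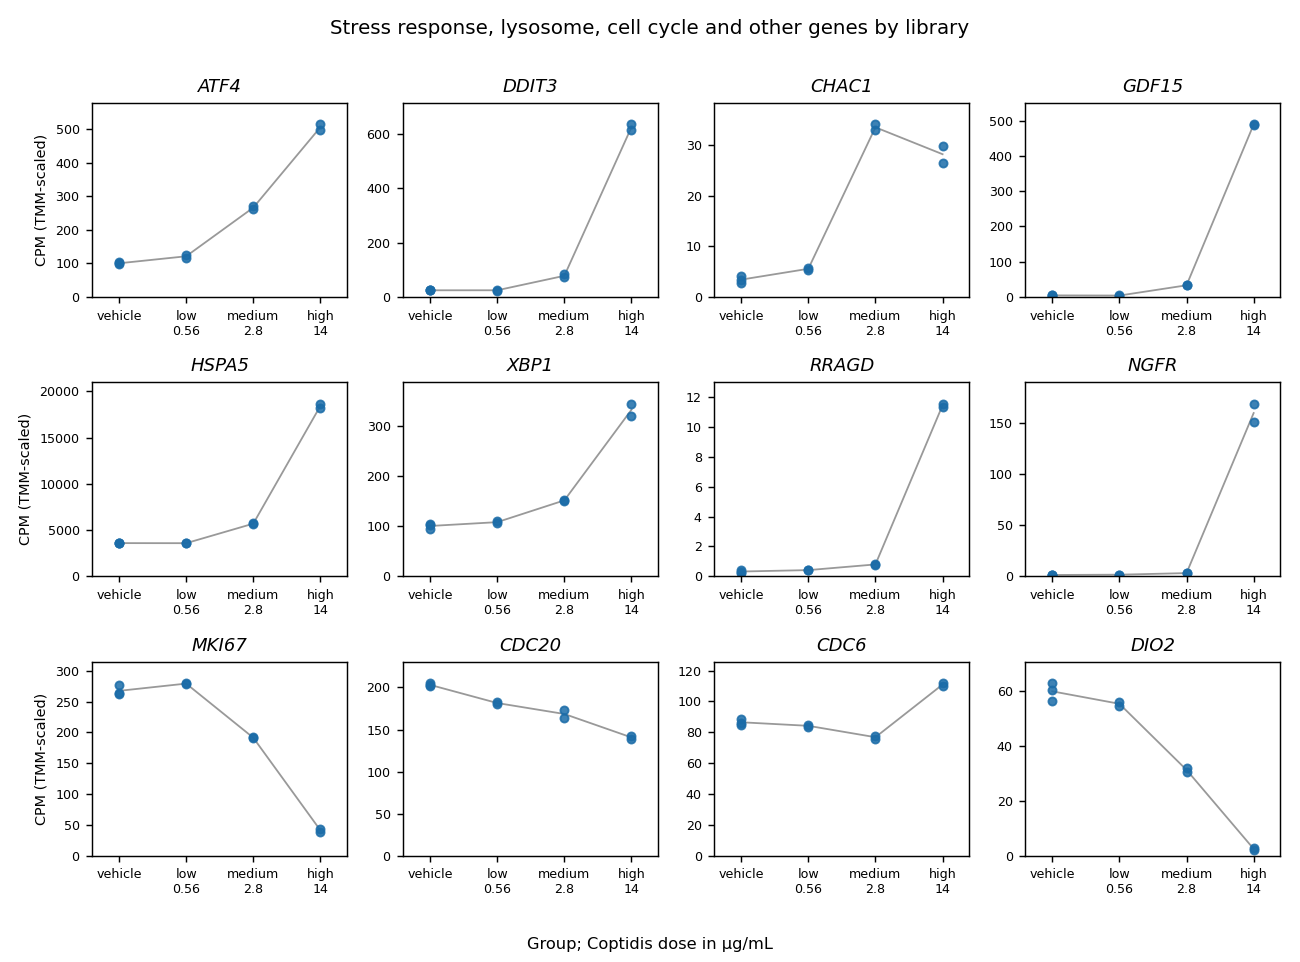
TMM-scaled CPM (y axis, from 0) of 12 genes in each library (points) by group (x axis, Coptidis dose in µg/mL), with a line through group means. On this linear axis DDIT3, GDF15, HSPA5, RRAGD and NGFR climb mainly between 2.8 and 14 µg/mL. On the log2 scale GDF15 rose by 3.07 in the lower and 3.89 in the upper step. CHAC1 is highest at 2.8 µg/mL, MKI67 and DIO2 are lowest at 14 µg/mL, and CDC6 is above its medium level at the high dose.

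Lysosome genes were mostly upper-step genes. Of 30 members of the list of lysosomal proteins, autophagy genes and their regulators TFEB, TFE3 and MITF, 22 rose, 4 fell (GLA, MITF, FNIP2 and ATP6V0D1) and 4 did not pass, with a median of 0.55. The fall of FNIP2 lost its call with DESeq2, with all 57 replicated libraries and without replicate 3 of the high dose or either medium library. In the upper step 86.7% of the list passed, against 62.1% of all genes tested. In the lower step 14 rose and 0 fell (median 0.13), beside 7.76% and 5.8% of all genes. The upper-step rule was met by 21 (70%, against 31.6% of all genes tested). The classes can overlap, and 14 of the 30 were graded (10.8% of all genes). RRAGD, a Rag GTPase that TFEB induces (chr6:89364636-89412270), was at 0.804 and 0.791 CPM in the medium and 11.4 and 11.5 CPM in the high libraries (14.3-fold, edgeR adjusted p = 9e-11), and its partner RRAGC rose by log2 1.10. NPC1, which exports cholesterol from lysosomes, went from 232 CPM in both medium libraries to 582 and 577 CPM, and WIPI1, an early autophagy protein, from 32.5 and 35.9 to 85.7 and 95.1 CPM. The Rag regulators FLCN (0.98) and FNIP1 (1.06) and the autophagosome proteins MAP1LC3B (1.08) and GABARAPL1 (1.18) rose, as did the proteases CTSD (0.78), CTSB (0.54), CTSL (0.39) and CTSA (0.42).

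Of 25 genes of cholesterol synthesis and uptake, 10 rose, 7 fell and 8 did not pass (median 0.05), while in the lower step 0 rose and 7 fell. In the upper step 68% of the list passed, near the 62.1% of all genes tested (31.5% higher, 30.6% lower). Among the falls, IDI1, ACAT2, EBP, PMVK and LSS fell by 0.36 to 0.62 on the log2 scale. INSIG1 (0.85), which retains sterol regulators in the ER, HMGCS1 (43.3 and 42.7 to 65.0 and 59.2 CPM, 0.53 ± 0.06), an early enzyme of the pathway, HSD17B7, CYP51A1 and SQLE rose. The cholesterol exporters ABCA1 (75.6 and 74.7 to 248 and 228 CPM, 3.17-fold) and ABCG1 (0.762 and 0.308 to 5.18 and 4.92 CPM, 9.30-fold), both targets of the sterol receptor LXR, rose. The lipogenic genes ELOVL6 (-1.33), ACACA (-1.03) and FADS2 (-0.84) fell. The LXR and fatty acid list thus had 5 rises and 5 falls among 14 (71.4% passed).

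Mitotic genes fell with no exception among those that passed. Of 23 tested, 22 fell, 0 rose and FOXM1 did not pass (-0.03), with a median of -1.23, and 16 fell by at least 2-fold. In the lower step 16 fell and 0 rose, with a median of -0.23. The kinesin KIF20A, which overlaps CDC23 on the other strand, was between 80.4 and 105 CPM in every vehicle, low and medium library and at 11.1 and 12.5 CPM in the high libraries (7.04-fold lower, edgeR adjusted p = 1.2e-16). The proliferation marker MKI67 was at 280 and 279 CPM at the low dose, 192 and 191 CPM at the medium dose and 38.5 and 44.2 CPM at the high dose. AURKA (-2.02), CCNA2 (-1.99) and DLGAP5 (-1.75) followed, whereas CDC20, the activator of the anaphase ligase, fell by only 0.26 on the log2 scale and UBE2C by 0.42.

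Most DNA replication genes fell in both steps. Of 26 tested, 21 fell, CDC6 and MCM5 rose and 3 did not pass (RFC4, E2F1 and CDT1), with a median of -0.86, and all 26 had fallen in the lower step (median -0.40). UHRF1, the maintenance methylation cofactor, fell from 54.6 and 57.6 to 10.6 and 11.8 CPM (log2 -2.33 ± 0.07), and MCM3, a helicase subunit, from 111 and 106 to 34.2 and 33.7 CPM. CDC6, which loads that helicase, was at 83.7 and 84.7 CPM at the low, 75.9 and 77.8 CPM at the medium and 112 and 110 CPM at the high dose (0.53 ± 0.04, edgeR adjusted p = 2.8e-09). The high libraries were above every vehicle library (highest 89.0 CPM). The rise of MCM5 was 0.12 and lost its call with DESeq2, with the replicate numbers as a block and without replicate 3 of the high dose or either medium library, among others. The 6 subunits of the helicase thus differed, with MCM3 (-1.68), MCM6 (-0.85), MCM4 (-0.78), MCM2 (-0.19) and MCM7 (-0.11) falling.

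The cell cycle homology region TTTGAA was in 15.4% of all promoters and in 11 of 18 mitotic promoters (61.1%), and the E2F element TTTNGCGC in 1.83% of all and 9 of 22 replication promoters (40.9%: E2F1, CDC6, CDT1, MCM2, MCM3, MCM6, MCM7, POLA1 and EXO1). These 9 genes spanned CDC6 (0.53) to MCM3 (-1.68) in the upper step. CDC20 and MCM3 are shown, the mitotic gene with the smallest fall that passed and the helicase subunit with the largest, with TTTGAA in capitals in CDC20 and TTTNGCGC in MCM3, on either strand.
CDC20, chr1:43358731-43359030, plus strand: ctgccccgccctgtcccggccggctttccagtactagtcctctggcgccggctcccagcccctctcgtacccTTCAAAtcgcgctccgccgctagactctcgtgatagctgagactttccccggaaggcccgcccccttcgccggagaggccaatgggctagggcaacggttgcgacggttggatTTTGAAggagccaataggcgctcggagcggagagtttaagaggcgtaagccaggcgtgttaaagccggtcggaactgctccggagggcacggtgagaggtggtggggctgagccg
MCM3, chr6:52284693-52284992, minus strand: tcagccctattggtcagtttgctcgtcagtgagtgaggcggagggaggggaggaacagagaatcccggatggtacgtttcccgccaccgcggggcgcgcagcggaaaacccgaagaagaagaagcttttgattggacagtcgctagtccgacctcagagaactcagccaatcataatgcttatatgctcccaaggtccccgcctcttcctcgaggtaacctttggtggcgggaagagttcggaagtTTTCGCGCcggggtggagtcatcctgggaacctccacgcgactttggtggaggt
The promoter of CDC20 holds 2 matches and that of MCM3 holds 1, beginning 4 bases before the start. The sterol element TCACNCCAC was in 1.15% of all promoters and in 1 of 18 of the cholesterol list (SREBF2).

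Genes of cell death moved upward together. Of 14 BCL2 relatives and death receptors tested, 12 rose, 0 fell and BID and BMF did not pass (-0.16 and 0.17), with a median of 0.72. In that list 85.7% passed, against 62.1% of all genes tested (31.5% higher, 30.6% lower). In the lower step 5 rose and 2 fell, beside 7.76% and 5.8% of all genes. TNFRSF10B, the TRAIL receptor DR5, went from 81.4 and 79.9 to 298 and 292 CPM (3.66-fold, edgeR adjusted p = 3.1e-17), and BBC3, which encodes PUMA, from 1.02 and 1.27 to 4.59 and 3.37 CPM. BCL2L11, which encodes the killer protein BIM, fell in the lower step (8.55 and 9.42 to 6.64 and 6.24 CPM) and rose in the upper to 19.0 and 18.8 CPM. The protective member BCL2 rose as well (11.5 and 9.71 to 27.8 and 27.3 CPM), by log2 1.37, with BCL2L1 (0.41) and MCL1 (0.34). Of 20 p53 targets, 12 rose, 3 fell (TP53I3, PHLDA3 and ZMAT3) and 5 did not pass (median 0.41). In that list 75% passed, near the 62.1% of all genes tested. GADD45A rose from 60.6 and 55.6 to 238 and 248 CPM, and the cell cycle inhibitor CDKN1A, flat in the lower step (20.2 and 21.5 against 18.7 and 21.2 CPM), to 48.8 and 51.0 CPM. FAS, a death receptor that overlaps ACTA2 on the other strand, was at 19.3 and 19.8 CPM at the low, 14.8 and 16.5 CPM at the medium and 29.5 and 25.9 CPM at the high dose.

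Cytokine, immediate-early and heat shock genes had members that rose and members that fell, as did all genes tested (31.5% higher, 30.6% lower). Of 15 NF-kB targets and cytokines, 9 rose, 3 fell and 3 did not pass (median 0.63). IL6 (chr7:22725884-22732002) was between 3.10 and 6.31 CPM in every vehicle, low and medium library and at a mean of 53.3 ± 0.425 CPM (SD, n = 2) in the high libraries (9.69-fold, edgeR adjusted p = 3.3e-13). IL1A (6.48-fold), CXCL3 (5.91-fold) and CXCL8 (3.73-fold) rose, while the monocyte chemokine CCL2 fell from 11.9 and 10.6 to 2.37 and 2.03 CPM (-2.35 ± 0.19) and NFKBIA, the NF-kB inhibitor, by 0.41 on the log2 scale. Among 20 MAPK and immediate-early genes 10 rose and 6 fell. EGR1 went from 26.5 and 28.7 to 3.41 and 5.24 CPM (-2.68 ± 0.16), and FOS (-2.87) and EGR3 (-2.60) fell with it, while EGR2 (2.23), the phosphatases DUSP5 (1.73) and DUSP1 (1.15) and PHLDA1 (1.51) rose. Of 15 cytosolic heat shock genes 4 rose and 8 fell (median -0.23). HSPA1A, the inducible HSP70, fell from 107 and 110 to 17.7 and 20.7 CPM (-2.50 ± 0.07) and its near-identical copy HSPA1B by 1.91, reads of which may be shared, with DNAJA1 (-1.37) and HSPA8 (-1.32). The regulator HSF1 (0.89) and the small heat shock protein CRYAB (1.38, overlapping HSPB2 on the other strand) rose.

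Of 26 genes of glycolysis and hypoxia, 13 rose, 8 fell and 5 did not pass (median 0.15), beside 31.5% higher and 30.6% lower over all genes. The largest rises in the list were of HKDC1, the vasodilator peptide gene ADM (2.30), SLC2A1 and HK2. The glucose transporter SLC2A1 went from 199 and 209 to 725 and 680 CPM (3.44-fold, edgeR adjusted p = 4.5e-16), the hexokinase HK2 from 61.1 and 61.4 to 177 and 166 CPM, and HKDC1, a hexokinase relative, from 8.68 and 8.61 to 84.7 and 84.4 CPM (9.77-fold). LDHA (-0.42), PGK1 (-0.35), PGAM1 (-0.32), ENO1 (-0.21), TPI1 (-0.12) and PKM (-0.13) fell, whereas ALDOA, GAPDH and ENO2 rose. The fall of PKM lost its call without either high library or replicate 3 of the medium dose. The oxygen-sensing hydroxylase EGLN3, a target of hypoxia-inducible factors, fell 12.9-fold and overlaps its antisense gene EGLN3-AS1. TXNIP, the glucose-sensing arrestin relative, fell in the lower step (5.50 and 6.31 to 2.37 and 1.98 CPM) and did not change detectably in the upper (2.47 and 2.08 CPM, log2 0.07, 95% interval -0.31 to 0.45). Of 23 nuclear genes of the respiratory chain 12 rose and SDHC fell, with a median of 0.17 and none past 2-fold. In that list 56.5% passed, against 62.1% of all genes tested.

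**Figure D3:**
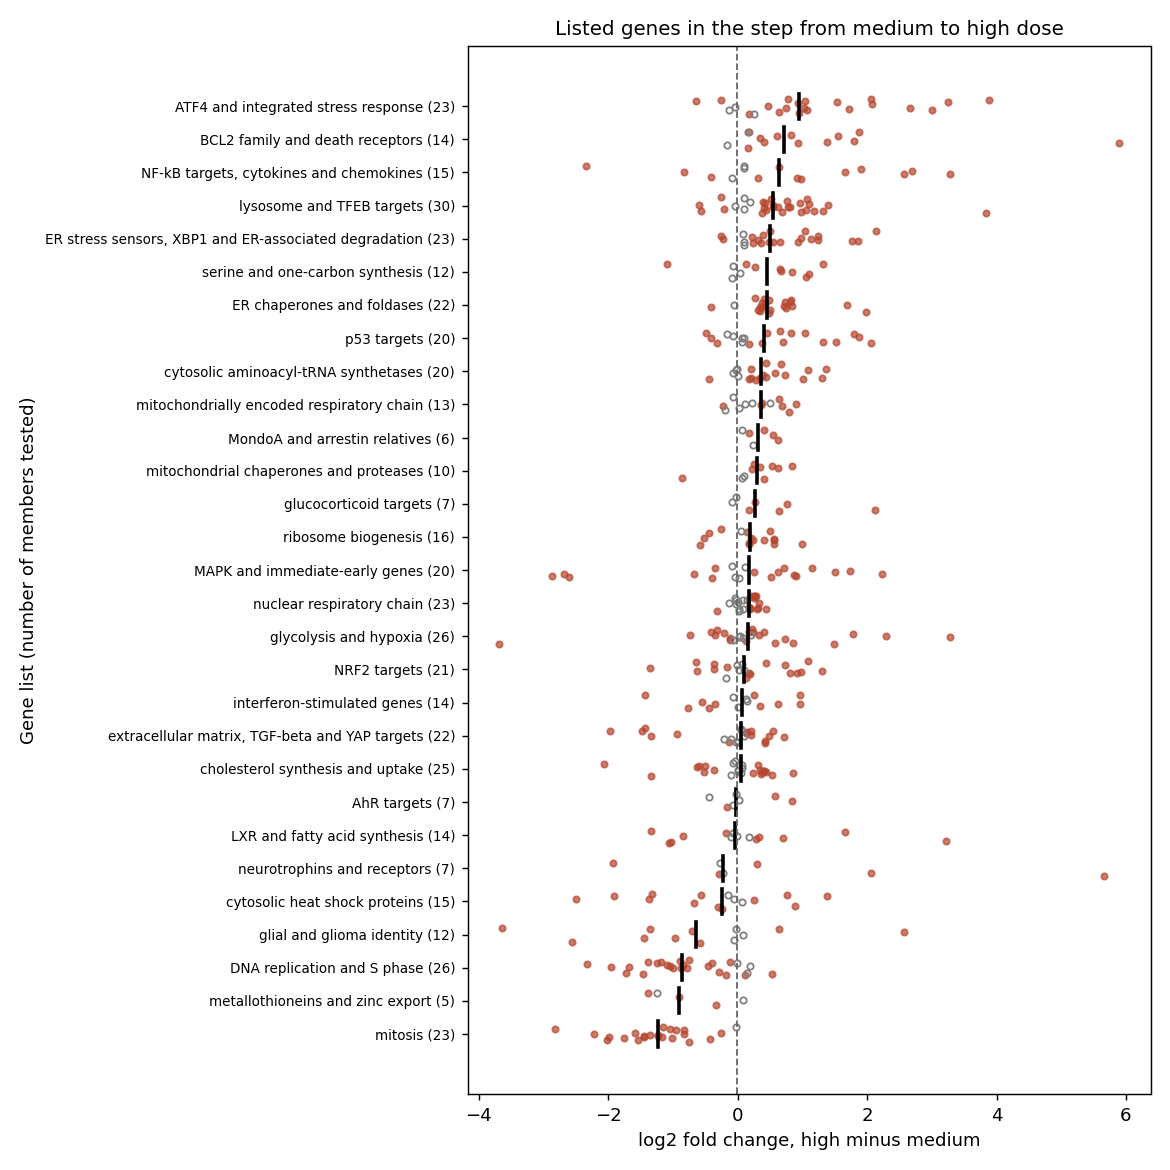
Log2 difference of the upper step (x axis) for each tested member (points, filled where the edgeR adjusted p was under 0.05 and open where it was not) of 29 gene lists (y axis, number tested in parentheses), with the list median (bar) and the median of all genes (dashed line). The ATF4 list has the highest median, 0.95, and the mitosis list the lowest, -1.23, while the cholesterol and heat shock lists spread to both sides of the dashed line.

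Other lists moved less or in small numbers, beside the 31.5% of all genes tested that rose and the 30.6% that fell. Of 21 NRF2 targets 10 rose and 6 fell (median 0.09), with GCLC (2.46-fold), FTH1 (2.13-fold) and HMOX1 (83.9 and 83.2 to 166 and 162 CPM, 0.98 ± 0.05) rising and AKR1B10 (-1.35), PRDX1 (-0.64), GCLM (-0.62), TXNRD1, ABCC1 and NQO1 falling. The fall of NQO1 (-0.16) lost its call without replicate 2 of the high or of the medium dose. The AhR target CYP1B1 was at 155 and 158 CPM in the medium and 144 and 155 CPM in the high libraries and did not pass (edgeR adjusted p = 0.23, 95% interval of log2 -0.17 to 0.03). CYP1A1 did not pass either at about 1 CPM (-0.44, interval -1.20 to 0.32). The fibrillar collagen COL1A1 fell from 3014 and 3177 to 772 and 815 CPM (3.90-fold lower), with COL1A2 (-1.47), COL5A1 (-1.34), COL3A1 (-0.94) and THBS1 (-1.44), while FN1, LOX, POSTN and COL6A1 rose by 0.43 to 0.55, so that 9 of 22 matrix genes rose and 6 fell. Of the metallothionein list 0 of 5 tested rose and 3 fell, MT1E from 18.6 and 15.7 to 6.52 and 6.63 CPM. Among 12 genes of glial and glioma identity 7 fell, among them the neural progenitor filament NES (7.24 and 7.56 to 1.33 and 1.18 CPM), ID1, ID3 and PDGFRA, and VIM (0.65) and OLIG2 rose, OLIG2 from 0.212 and 0.264 to 1.73 and 1.12 CPM.

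Genes that kept a nearly flat level up to the medium dose and then moved included regulators of the circadian clock. Among upper-step genes averaging 1 CPM or more, the 8 largest rises were IL6, the zinc finger repressor KLF11, the clock genes CIART, NR1D1 and DBP, YPEL2, the neural receptor PRTG and the vasodilator peptide ADM. NR1D1, the repressor REV-ERB alpha (chr17:40092787-40100725), was between 32.1 and 44.6 CPM in every vehicle, low and medium library and at 230 and 204 CPM in the high libraries (5.98-fold, edgeR adjusted p = 1.4e-13). Its gene overlaps THRA on the other strand. CIART, another clock repressor, went from 7.32 and 9.76 to 59.6 and 52.4 CPM, and DBP, a clock output activator, from 2.58 and 3.21 to 15.2 and 15.7 CPM. PER1, which is also in the glucocorticoid list, went from 27.3 and 28.6 to 124 and 119 CPM. That list had 5 rises and 0 falls among 7. Its share that passed (71.4%) was near the 62.1% of all genes tested (31.5% higher, 30.6% lower). KLF11 rose 6.66-fold (5.08 and 4.79 to 34.7 and 31.1 CPM) and ADM 4.91-fold (10.2 and 9.67 to 49.0 and 48.9 CPM).

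The 8 largest falls of that class were CCN4, GASK1B-AS1, LFNG, AL513477.1, APLN, KIF20A, EGR1 and MANCR. LFNG, a glycosyltransferase that tunes Notch receptors, went from 4.02 and 4.92 to 0.592 and 0.481 CPM (log2 -3.04 ± 0.26), and APLN, the ligand of the apelin receptor, from 2.37 and 1.54 to 0.296 and 0.214 CPM (-2.91 ± 0.39). For all 8 the high libraries lay below each vehicle, low and medium library. The count of upper-step genes was between 3691 and 4962 with 1 Coptidis library left out 958 with all 57 replicated libraries in the fit and 5361 with the 55. With a narrower limit on the lower step it was 3781.

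**Figure D4:**
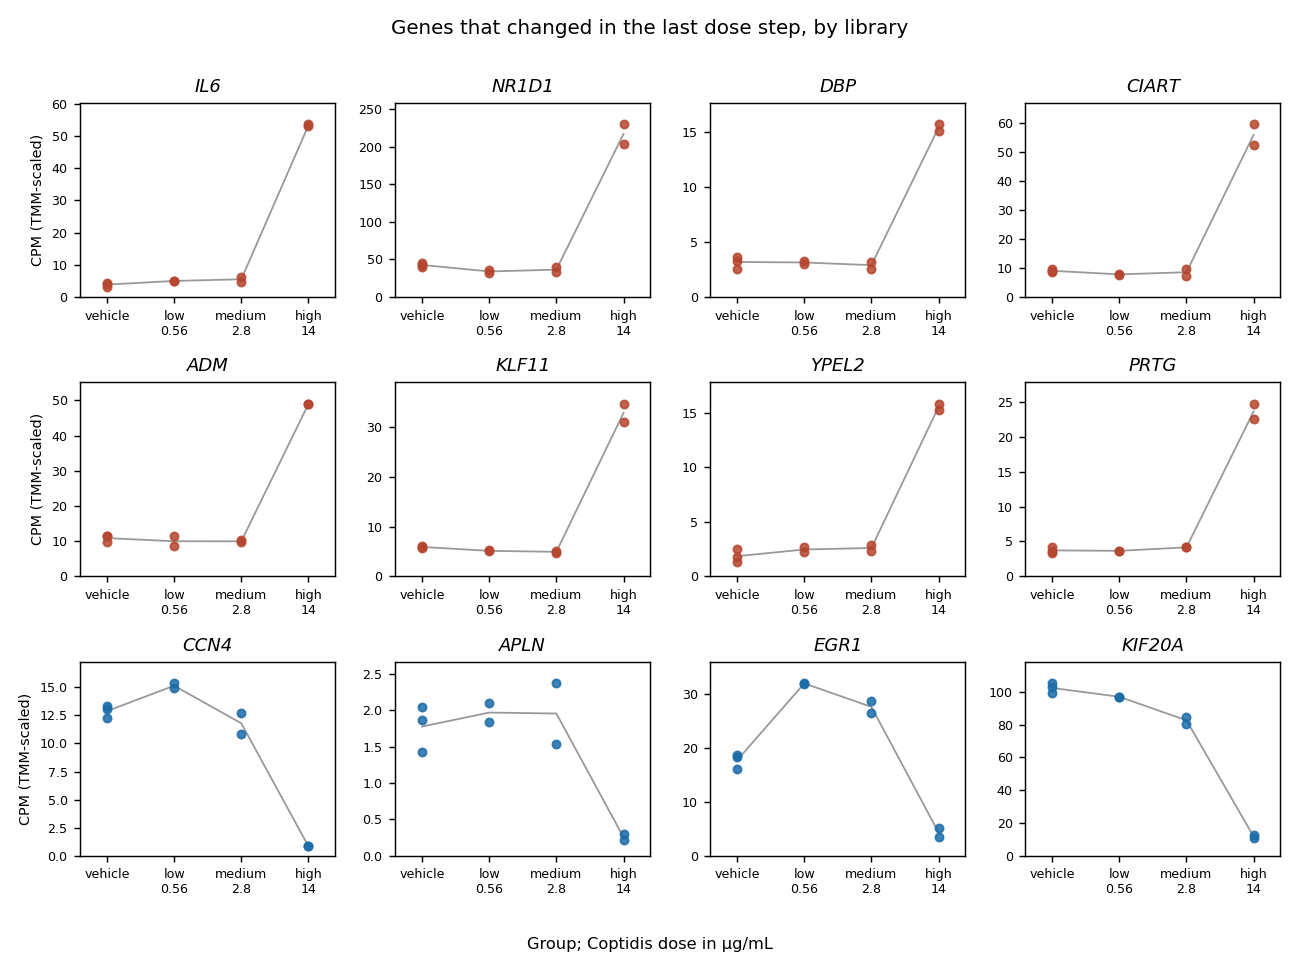
TMM-scaled CPM (y axis, from 0) of 12 upper-step genes in each library (points) by group (x axis, Coptidis dose in µg/mL), 8 rising (red) and 4 falling (blue), with a line through group means. In each panel the 2 high libraries lie outside the range of all other libraries, as for IL6 at a mean of 53.3 CPM against at most 6.31 CPM.

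Genes that turned back downward were led by the mitochondrial ribosomal RNAs. The mitochondrial chromosome encodes 2 ribosomal RNAs, 22 tRNAs and 13 proteins of the respiratory chain, transcribed as long precursors that are cut apart. MT-RNR1, the small ribosomal RNA (chrM:648-1601), was at 633, 621 and 657 CPM in the vehicle, 2147 and 2005 CPM at the low dose, 20224 and 19821 CPM at the medium dose and 10201 and 11091 CPM at the high dose. MT-RNR2, the large ribosomal RNA (chrM:1671-3229), followed with 8054, 7815 and 8462 CPM, 18107 and 16784 CPM, 91254 and 91381 CPM, and 38315 and 37732 CPM. In both, the medium and high libraries stood above all vehicle and low libraries, and the high libraries were below the medium, 1.88-fold and 2.40-fold lower at the high dose (log2 -0.91 ± 0.06 and -1.26 ± 0.06, edgeR adjusted p = 1.6e-10 and 1e-12). The libraries were made for mRNA, per the labels, and the part of RNA capture in these values was not tested.

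Of the 13 messenger RNAs from the same chromosome, 6 moved the other way in both steps. In the lower step 0 of the 13 rose and 9 fell, with a median of -0.45. In the upper step MT-ND5 fell, 6 did not pass and 6 rose, with a median of 0.36 (53.8% passed, against 62.1% of all genes). The same 6 turned back: MT-ND3, MT-CO3, MT-ATP6, MT-CO2, MT-ND4 and MT-CO1. MT-ND3, a complex I subunit, was at 1337 and 1174 CPM at the low dose, 656 and 764 CPM at the medium dose and 1254 and 1399 CPM at the high dose (log2 0.90 ± 0.08, edgeR adjusted p = 2.8e-08). MT-CO2, a cytochrome oxidase subunit, was at 5036 and 4599, 2978 and 3156, and 4825 and 4781 CPM. For MT-CO1, MT-CO2, MT-CO3, MT-ATP6 and MT-ND4 both medium libraries were below all vehicle libraries, and for MT-ND3 they were not, with the vehicle at 753, 717 and 857 CPM. MT-ND5 fell in the upper step from 1922 and 1888 to 1652 and 1598 CPM, and this call was lost when 55 or 57 libraries entered the fit. The 22 tRNAs did not pass the filter on low counts. Nuclear copies of mitochondrial genes can share their reads, and MT-ATP6 overlaps MT-ATP8 and MT-CO3.

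**Figure D5:**
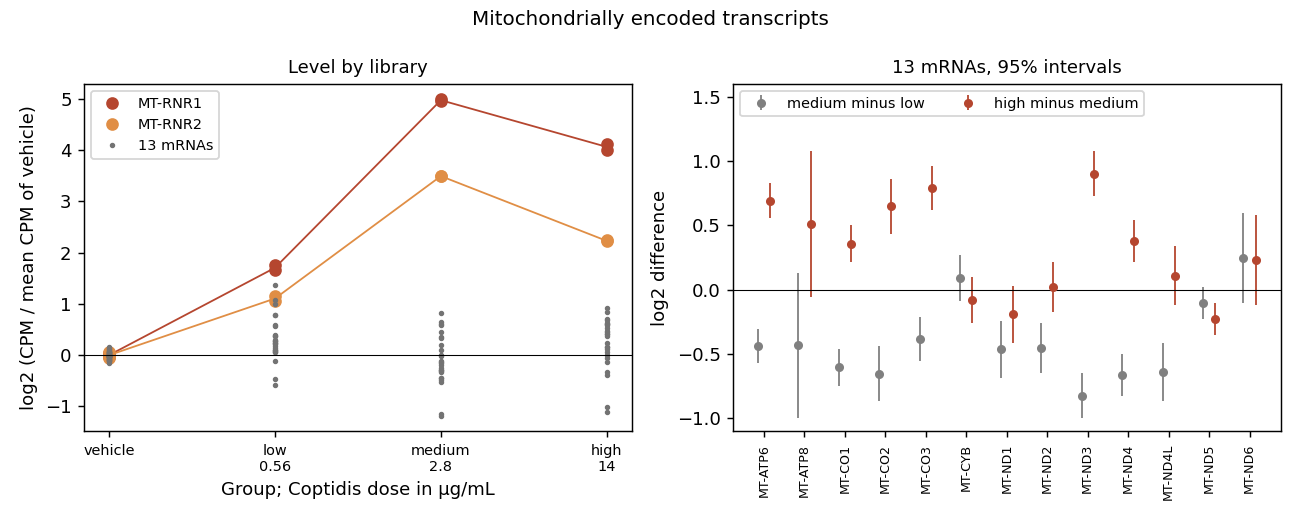
Left, log2 ratio of CPM to the vehicle mean (y axis) for each library by group (x axis, Coptidis dose in µg/mL) of the 2 mitochondrial ribosomal RNAs (large points, lines through group means) and the 13 mRNAs (small points). Right, log2 difference with 95% interval (y axis) of each mRNA (x axis) in the lower step (grey) and the upper step (red). The ribosomal RNAs peak at the medium dose, while 9 mRNAs fell to the medium dose and 6 of those rose again.

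Of the 156 genes that turned back, 132 (0.785% of genes tested) had both medium libraries beyond every high, low and vehicle library, 85 above (0.506%) and 47 below (0.28%). The class was picked for opposite steps around the medium dose. Medium libraries beyond the high and low ones thus follow largely from that choice, and the count is a description. Its share among genes outside the class was not counted. The count fell to 64 and 78 without replicate 2 or 3 of the low dose, to 80 and 84 without replicate 2 or 3 of the medium dose, to 74 with DESeq2 and to 6 with all 57 replicated libraries, and was 178 with the 55. Besides the ribosomal RNAs, the genes with the largest peak at the medium dose (by the smaller of their steps) were SMG1P7 (3.00 and 3.38 CPM at the medium, 1.53 and 1.92 CPM at the high dose), the matrix gene ECM2 (3.98 and 3.43 to 2.02 and 1.44 CPM), KRTAP1-5, TMEM156, KRTAP2-3 and FAM241A (9.10 and 9.01 to 6.37 and 6.42 CPM). The calls of KRTAP1-5, TMEM156 and KRTAP2-3 in the upper step were lost with 1 high or medium library left out, and keratin-associated proteins and the SMG1 pseudogene have near-identical copies that can share reads. The largest dips outside the mitochondrial chromosome were DDIT4L (9.70 and 10.4, 6.81 and 7.38, then 14.4 and 13.4 CPM), an inhibitor of mTOR signalling, BCL2L11, AC026464.4, the complement gene C4A, which has a near-identical copy, and the phosphodiesterase PDE4B. TXNRD1, a thioredoxin reductase, peaked at 319 CPM in both medium libraries against 263 and 274 CPM at the low and 249 and 245 CPM at the high dose, and PHLDA3 at 55.1 and 53.7 CPM against 40.5 and 41.1 CPM at the high dose.

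The same step under Zizyphi Fructus, a jujube fruit extract, changed fewer genes. Between 500 and 100 µg/mL, 641 genes passed (3.81%), 286 higher (1.7%) and 355 lower (2.11%), and 144 or 140 without replicate 3 of its high or medium dose. The doses differ between the herbs, so the values stand side by side as steps of equal ratio only. A test of the difference between the herbs' steps passed for 8633 genes (51.4%, with 26.4% having the higher and 24.9% the lower Coptidis step). It passed for 16 of 17 genes fixed with earlier results of these data known, all but CYP1A1. DDIT3 was at 3.01 for Coptidis and -0.18 for Zizyphi on the log2 scale, and GDF15 at 3.89 and -0.96.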

How the data were processed

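RNA of SW1783 cells was sequenced as paired-end mRNA libraries, per the labels' protocols. The authors deposited 1 table of expected counts for 60675 genes, of which 23499 had no count and in which 9.18% of values were not whole. The submitters' processing notes name FastQC 0.11.9, Trim Galore 0.6.5, STAR 2.7.3a, RSEM 1.3.3 and the human genome build GRCh38, without their settings. Whether counting used the strand, and which annotation it used, are not stated. Symbols and positions came from GENCODE 29, which held 57055 of the gene IDs.

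Expected counts were rounded and tested with the quasi-likelihood test of edgeR 4.0.16 (limma 3.58.1, R 4.3.3), with TMM scaling, filterByExpr at a minimum count of 10 and Benjamini-Hochberg adjustment over 16812 genes at a threshold of 0.05. The fit held 15 libraries (6 Coptidis, 6 Zizyphi and 3 vehicle), with totals of 15996140 to 27911628 counts, 8 residual degrees of freedom and a common biological coefficient of variation of 0.0378. Other sets were left out of it because earlier results showed 2 libraries there (the Aconiti high-dose and the Yijung-tang low-dose library numbered 1) that stand apart from their group. Levels are TMM-scaled CPM, and errors of log2 differences are standard errors. Intervals of single read ratios cover counting error only. The script was tested on simulated data.

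The comparison, the gene lists and the rules were chosen with earlier results of these data known. Named were the 10 largest rises and falls past the threshold without overlap of libraries, the 8 largest each way among genes moving in the upper step and among genes turning back (by the smaller step), each list's called members with the smallest p and those against its majority, and 17 fixed genes. Rises and falls were ranked among genes averaging 1 CPM or more. A few of these genes are not reported here. Other list members in the text were chosen after their values were seen. Alternatives were the test of DESeq2 1.42.0, no filter, other sets of libraries, a block for the replicate number and leaving out each library. Another was the size-factor method of DESeq2, computed in edgeR as RLE scaling. Tables and figures were made with Python 3.11.15, pandas 2.3.3, numpy 2.4.6 and matplotlib 3.10.9.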

Additional observations from a re-analysis of the deposited data

Results flagged for a closer look

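Of the 17 fixed genes, 16 differed between the upper step of Coptidis (14 against 2.8 µg/mL) and that of Zizyphi (500 against 100 µg/mL). The test was edgeR's test of the difference itself, which 51.4% of all genes tested passed. The 17 genes were chosen with earlier results of these data known, so their count is a description. Values are the Coptidis step minus the Zizyphi step on the log2 scale. Among stress genes the difference was 3.19 for DDIT3, 1.19 for ATF4, 4.85 for GDF15, 2.02 for HSPA5, 1.24 for XBP1 and 1.10 for HMOX1. ATF4, GDF15 and HSPA5 fell in the Zizyphi step (-0.26, -0.96 and -0.33) and rose in the Coptidis step. NGFR differed by 5.09, IL6 by 3.29, the hexokinase relative HKDC1 by 3.61 and the cell cycle inhibitor CDKN1A by 1.20. MKI67 differed by -2.43, DIO2 by -3.41 and HMGCS1 by 0.65. CYP1B1 differed by -0.39, with a rise of 0.32 under Zizyphi and no call under Coptidis. TXNIP differed by -3.85: it rose by 3.92 in the Zizyphi step and was at 0.07 in the Coptidis step. The 2 herbs were given at different doses, and the cause of these differences was not tested.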

How the results depend on the processing

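With all 57 replicated libraries in the fit, 6285 genes passed in the upper step, 273 in the lower, 1575 in the difference of the steps, 9 in the Zizyphi step and 3696 in the difference between the herbs, with 958 upper-step, 6 turn-back and 252 graded or lower-step genes (2190 in the reported fit). With the 55 libraries left without the 2 that stand apart, these counts were 10690, 2418, 6457, 773 and 8807, with 5361, 178 and 2295. DESeq2's test gave 74 turn-back genes, and no filter on low counts gave 970 Zizyphi genes. With 1 library left out, the lower step had 1247 to 1370 genes, the Zizyphi step 140 to 757, turn-back genes 64 to 136 and graded or lower-step genes 1207 to 2124. The labels give replicates only a number. Deviations of same-numbered libraries correlated at 0.303 between the Coptidis medium and high doses, at 0.168 to 0.353 among these and the Zizyphi low and medium doses, at -0.422 to -0.292 between the Zizyphi high dose and each of those, and at -0.232 to 0.0701 between the Coptidis low dose and the rest. With the replicate block 10391 genes passed in the upper step, 2193 in the lower and 573 in the Zizyphi step, and 146 turned back. Crossing the numbers of the Zizyphi high dose, added after seeing these negative correlations, gave 994 Zizyphi genes. Of the alternatives for gene lists, 20 moved a list's count by over 1.5 times, mostly with 57 libraries, where 13 ER chaperones, 10 cholesterol, 10 NRF2, 3 nuclear respiratory chain and 8 matrix genes passed. Without the filter, 11 of 13 mitochondrial mRNAs passed. Named genes lost a call in 74 cases and none changed direction. The cause of these shifts was not tested. Levels under 1 CPM rest on few reads.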

Other observations

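Some gene families outside the fixed lists moved together in the upper step. They were chosen after their values were seen, so their counts are a description. Over all genes tested 31.5% rose and 30.6% fell. Of 77 cytosolic ribosomal protein genes, 74 rose, RPS26 fell and 2 did not pass, with a median log2 difference of 0.40 against -0.016 over all genes. With RLE scaling in place of TMM 75 rose. Of 18 genes of the circadian clock and its outputs, 16 rose and CLOCK fell, with a median of 1.18. In the KLF family of zinc finger factors 11 of 14 rose and 2 fell, with a median of 0.99.

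Members of 2 gene clusters fell, beside the 30.6% of all genes tested that did. Of 10 HOXA genes tested, which set position along the body axis in development, 8 fell and 0 rose (median -0.71). Of 15 protocadherin beta genes, which encode neuronal adhesion proteins, 10 fell and 0 rose (median -0.90). Protocadherin beta genes are similar in sequence, so reads may be shared between members.

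Non-coding classes had other medians in the upper step, a difference that was not tested. Beside the 30.6% of all genes tested that fell, the share that fell was larger in lincRNAs and smaller in antisense genes. The median log2 difference was 0.02 over 13528 protein-coding genes, -0.64 over 718 lincRNAs, of which 269 fell and 49 rose, and -0.38 over 1002 antisense genes, of which 265 fell and 87 rose. Over 389 processed pseudogenes it was 0.24, with 74 rising and 36 falling. Both shares were smaller than over all genes tested (31.5% rising, 30.6% falling), and most of these pseudogenes did not pass. Their reads can be shared with the parent genes.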
